A study of Homo sapiens with 24 samples.

Results

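The co-activator gene YAP1, 3 genes of its DNA-binding TEAD partners (TEAD1, TEAD2 and TEAD4) and 6 genes known as targets or regulators of the pair (CCN1, CCN2, ANKRD1, AMOTL2, LATS2 and AJUBA) were followed across human pluripotent stem cells and early ectoderm. They were taken by gene symbol, 10 of the 60671 genes listed in each of the 2 count tables. RNA of 24 bulk libraries was sequenced, in 8 groups of 3. From H1, an established human embryonic stem cell line, came CARHSP1 knockdown primed cells and nontargeting (NT) control primed cells, ZNF8 knockdown naive cells and NT naive cells, and ZIC2 knockdown ectoderm cells and NT ectoderm cells at day 2 of differentiation. The labels list doxycycline for all 18 H1 libraries, controls included. From H9, a second established embryonic stem cell line, came naive cells and primed cells, with no treatment listed. The study's own description names the 3 knockdowns against their NT controls as its comparisons. The labels do not say whether the 3 libraries of a group are separate cultures, so the p-values below measure the spread between these libraries, which may be technical.

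In the Hippo pathway the kinases STK3 and STK4 switch on the kinases LATS1 and LATS2, which phosphorylate YAP1 and its paralogue WWTR1 (also called TAZ) and so keep them out of the nucleus. Unphosphorylated YAP1 enters the nucleus, binds TEAD proteins that already sit on DNA, and raises transcription of genes such as CCN1, CCN2 and ANKRD1. YAP1 is controlled mainly at the protein level, by phosphorylation, location and actin tension, none of which was measured here. Naive cells resemble the inner cells of the blastocyst, primed cells the later epiblast, and in the embryo YAP1 and TEAD4 are known for their part in setting apart the trophectoderm.

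The members are protein-coding genes on 9 chromosomes, with positions from GENCODE 29 on GRCh38. YAP1 (ENSG00000137693) lies at chr11:102110461-102233423 on the plus strand and TEAD1 (ENSG00000187079) at chr11:12674591-12944483 on the plus strand. TEAD2 (ENSG00000074219) lies at chr19:49340595-49362457 on the minus strand and TEAD4 (ENSG00000197905) at chr12:2959330-3040673 on the plus strand. CCN1 (ENSG00000142871, also known as CYR61) lies at chr1:85580761-85583962 on the plus strand and CCN2 (ENSG00000118523, also known as CTGF) at chr6:131948176-131951373 on the minus strand. ANKRD1 (ENSG00000148677) lies at chr10:90912096-90921276, AMOTL2 (ENSG00000114019) at chr3:134355874-134375479, LATS2 (ENSG00000150457) at chr13:20973032-21061547 and AJUBA (ENSG00000129474) at chr14:22971174-22982642, all 4 on the minus strand. TEAD2 overlaps CD37 and DKKL1 on the other strand. CD37 reached at most 6.4 and DKKL1 at most 4.98 CPM (counts per 1000000 counted reads) in any library, while TEAD2 was never below 128 CPM.

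Libraries held 6756704 to 20773963 counts. The levels below are CPM scaled by edgeR's TMM factors within each table, so H1 and H9 levels are on separate scales. CARHSP1 averaged 19.1 CPM in its knockdown and 149 CPM in NT primed cells, and ZIC2 averaged 265 CPM in its knockdown and 553 CPM in NT ectoderm. ZNF8 averaged 16.1 ± 1.35 CPM in its knockdown and 19.8 ± 2.97 CPM in NT naive cells (SD, n = 3 each), a log2 difference of -0.32 that missed the threshold of 0.05 (edgeR adjusted p = 0.0664) and passed in 4 of 13 alternatives, at adjusted p of 0.0403 to 0.0413. That group is called the ZNF8 knockdown here by its label. A list of naive markers summed to 981 to 1019 CPM in NT naive and 236 to 251 CPM in NT primed H1 libraries, and to 454 to 458 CPM in naive and 223 to 237 CPM in primed H9 libraries. All 11 were called higher in NT naive than in NT primed H1 cells. Of 10 tested in H9, 9 were called higher in naive cells and 1 lower. KLF17, a naive marker, stood at 9.67 to 11.9 CPM in NT naive H1 cells but at 0, 0.112 and 0.0957 CPM in naive H9 cells.

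**Figure D1:**
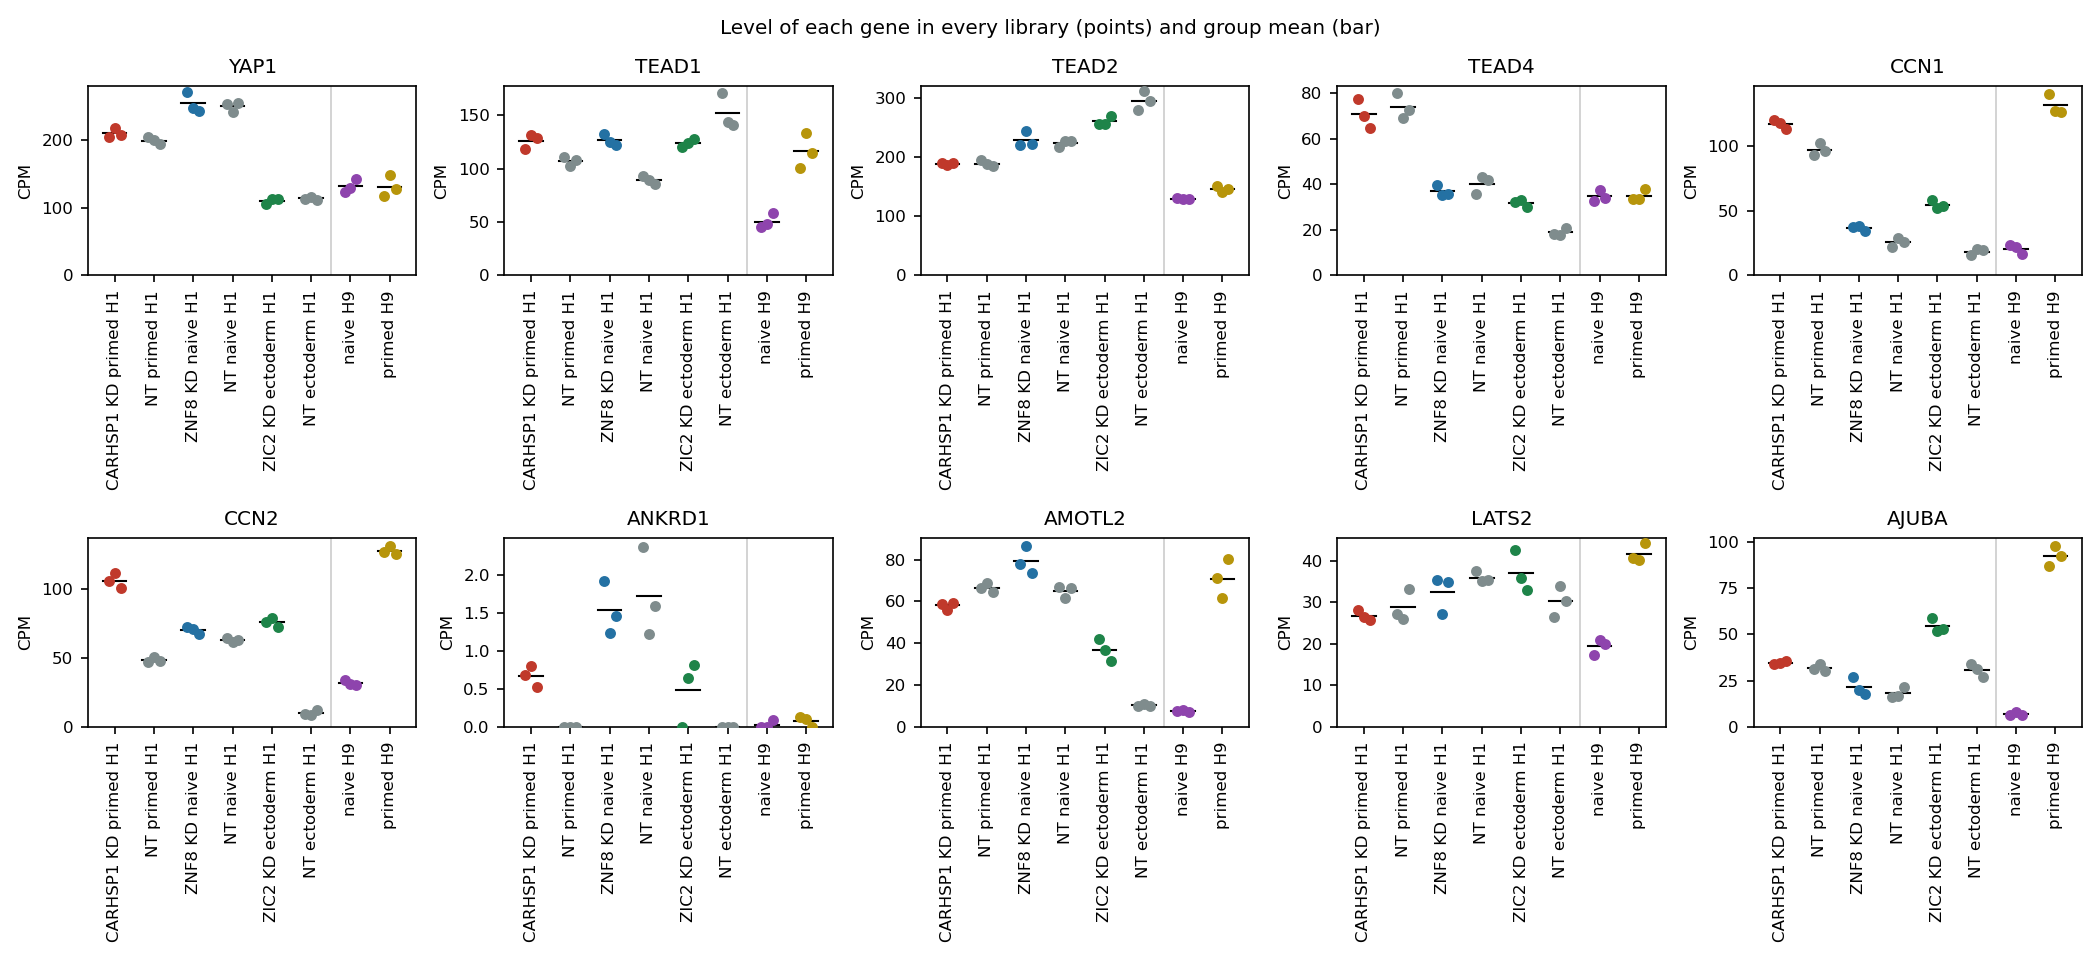
Level of each of the 10 genes in each of the 24 libraries, in CPM scaled within its own table (y axes start at 0), by group (x axis). Each point is 1 library. CCN2 averages 75.6 CPM in ZIC2 knockdown ectoderm against 10.4 CPM in NT ectoderm, while YAP1 differs little within each knockdown pair.

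YAP1 was the most abundant of the co-activators in every group. Compared per length, as CPM per kilobase of the deposited gene length, YAP1 averaged 33.2 in CARHSP1 knockdown and 31.5 in NT primed cells, 40.3 in ZNF8 knockdown and 39.6 in NT naive cells, and 17.5 in ZIC2 knockdown and 18 in NT ectoderm. In H9 it averaged 20.9 in naive and 20.8 in primed cells. WWTR1 averaged 4.48 and 4.65 in the primed pair, 11.8 and 11.4 in the naive pair and 2.66 and 2.00 in the ectoderm pair, with the knockdown first in each. The ratio of YAP1 to WWTR1 per length was therefore lowest in the naive groups, at 3.41 in ZNF8 knockdown, 3.48 in NT naive H1 and 3.33 in naive H9, and lay between 6.59 and 9.01 in the other 5 groups. These are descriptions of group means.

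The TEAD genes encode the DNA-binding subunits of the complex and are thought to recognise the same motif. TEAD2, known from the mouse as the TEAD gene of the early embryo and neural precursors, made up most of the summed per-length level of TEAD1 to TEAD4 in nearly every group. Its share was 71.0% in ZNF8 knockdown and 69.9% in NT naive H1 cells, 64.2% in ZIC2 knockdown and 74.0% in NT ectoderm, and 50.5% in CARHSP1 knockdown and 49.8% in NT primed cells. In H9 it was 59.3% in naive and 51.1% in primed cells. TEAD4, known for its role in trophectoderm, took 24.8% in CARHSP1 knockdown and 25.5% in NT primed cells, but 10.3% in ZIC2 knockdown and 6.21% in NT ectoderm. TEAD3 took its smallest share, 2.97%, in ZNF8 knockdown cells, against 5.80% in NT naive cells. TEAD1 held between 6.45% and 11.3% in the 8 groups.

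**Figure D2:**
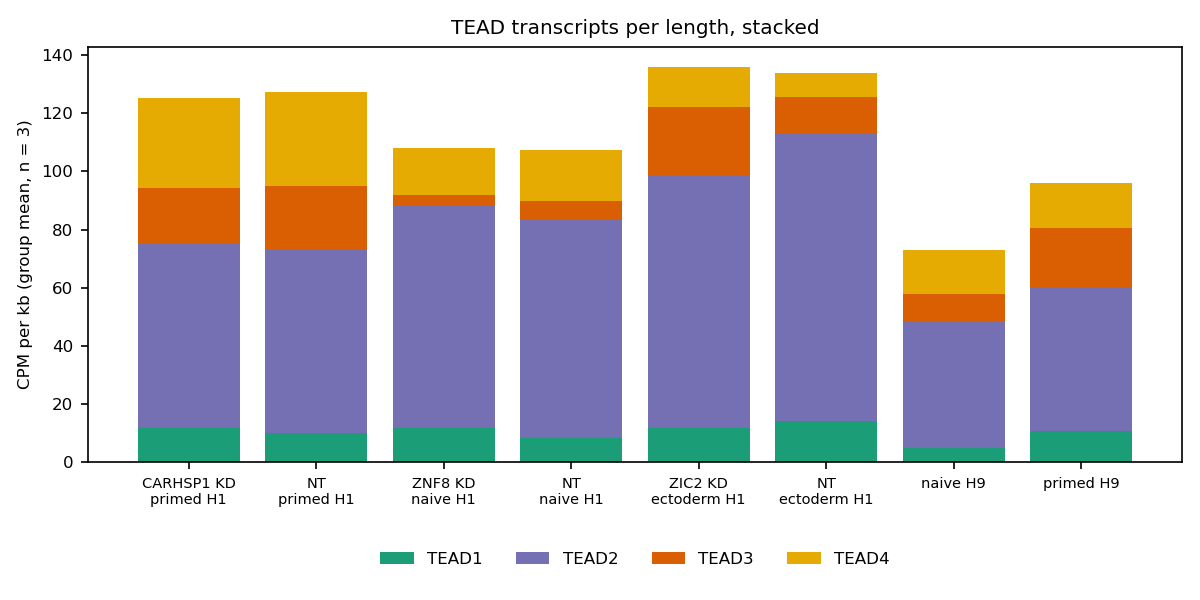
Summed level of TEAD1 to TEAD4 per group, in CPM per kilobase of gene length (y axis, from 0), stacked by gene; each bar is the mean of 3 libraries. The sum lies between 107 and 136 in the 6 H1 groups, and TEAD2 fills the largest part of every bar.

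The ZIC2 knockdown was the one in which the most members moved. ZIC2 is a zinc-finger transcription factor of primed pluripotent cells and ectoderm. Of the 9 members other than ANKRD1, which stood near 0, 5 rose and 2 fell in ZIC2 knockdown ectoderm. Of all 15013 genes tested, 28.1% were called, 15.3% as higher and 12.8% as lower. The median log2 difference was 0.75 over the 9 members and -0.01 over all genes tested. In bulk RNA, fewer cells of a type and less RNA per cell cannot be told apart, and this holds for every result here.

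Secreted CCN2, a matricellular protein and the most widely used readout of YAP1 and TEAD activity, showed the largest difference. It stood at 75.6, 78.8 and 72.4 CPM in ZIC2 knockdown libraries, against 9.63, 8.99 and 12.6 CPM in NT ectoderm libraries. The 2 groups lay far apart, and CCN2 rose 7.18-fold (log2 2.84 ± 0.12 SE, edgeR adjusted p = 1.3e-13).

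The promoter of CCN2 is shown because the bases GGAATG, the core of the motif that TEAD proteins bind, occur in it 3 times. The stretch is taken from RefSeq on GRCh38.p14, chr6:131951374-131951622 on the minus strand, and each GGAATG is in capitals, at positions −169, −104 and −95 counted from the start site.
CCN2: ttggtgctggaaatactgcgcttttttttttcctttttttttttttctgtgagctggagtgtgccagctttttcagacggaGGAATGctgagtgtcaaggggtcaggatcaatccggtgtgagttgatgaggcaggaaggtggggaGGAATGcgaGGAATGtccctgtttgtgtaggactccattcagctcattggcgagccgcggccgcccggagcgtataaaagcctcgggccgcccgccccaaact
The 250 bases before the start site were searched in 35116 RefSeq promoter windows. Of these windows 11.9% held GGAATG on either strand, 0.940% at least 2 times and 29, 0.0826%, at least 3 times. Promoter entries were found for 7 of the 10 members. The ANKRD1 window held 2 matches and the YAP1 window 1, and each match is given with the 10 bases on either side of it. The windows of TEAD2 and LATS2 held none, and for AMOTL2 and AJUBA a match lay in the window of an alternative start site only, within an annotated exon. The ANKRD1 match at position −128 also lies in a GENCODE 29 exon, while that at −220 does not.
ANKRD1, position −220, chr10:90921292-90921317, minus strand: caccaccaaaGGAATGgccctctcac
ANKRD1, position −128, chr10:90921200-90921225, minus strand: cactgagtctGGAATGaaaattcacc
YAP1, position −162, chr11:102110275-102110300, plus strand: ggagtgtgcaGGAATGtagcaacttg
A match describes these letters and does not show binding, which was not measured in these libraries.

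AMOTL2, an angiomotin that holds YAP1 in the cytoplasm and is itself a target of YAP1, stood at 42.0, 36.8 and 31.5 CPM in ZIC2 knockdown libraries, against 10.1, 11 and 9.86 CPM in NT ectoderm libraries. It rose 3.57-fold (log2 1.84 ± 0.14 SE, edgeR adjusted p = 2.14e-09). CCN1, the matricellular relative of CCN2, stood at 58.5, 52.3 and 54.0 CPM in ZIC2 knockdown libraries, against 15.7, 20.4 and 19.5 CPM in NT ectoderm libraries, and rose 2.94-fold (log2 1.56 ± 0.12 SE, edgeR adjusted p = 1.04e-09). In both genes every knockdown library exceeded every control library. AJUBA, a LIM-domain protein that binds and restrains LATS kinases, stood at 58.7, 52.0 and 53.2 CPM in ZIC2 knockdown, against 34.2, 31.5 and 26.8 CPM in NT ectoderm, and rose 1.79-fold (log2 0.84 ± 0.11 SE, edgeR adjusted p = 4.57e-06).

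The effector genes themselves moved less and in both directions. TEAD4 stood at 32.3, 32.9 and 30.2 CPM in ZIC2 knockdown libraries, against 18.3, 17.7 and 20.7 CPM in NT ectoderm libraries. It rose 1.68-fold (log2 0.75 ± 0.12 SE, edgeR adjusted p = 8.94e-05), and the log2 difference was 0.48 after correction for GC and length trends. TEAD1 fell, at 120.2, 124 and 128 CPM in ZIC2 knockdown against 171, 144 and 141 CPM in NT ectoderm (log2 -0.29 ± 0.07 SE, edgeR adjusted p = 0.00622). That call rested on 1 control library, since the log2 difference was -0.19 with an adjusted p of 0.0513 without NT ectoderm replicate 1. TEAD2 averaged 260.1 ± 8.56 CPM in ZIC2 knockdown and 295 ± 15.6 CPM in NT ectoderm (SD, n = 3 each; log2 -0.18 ± 0.06 SE, edgeR adjusted p = 0.0277). It lost its call without ZIC2 knockdown replicate 1 (adjusted p = 0.0798), replicate 2 (0.125) or NT ectoderm replicate 2 (0.156), and with no filter on low counts (0.0626), while removing GC and length trends moved it to -0.38.

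YAP1 and LATS2 did not pass the test in ZIC2 knockdown ectoderm. YAP1 stood at 105, 113 and 112 CPM in ZIC2 knockdown and at 113, 116 and 112 CPM in NT ectoderm (log2 -0.04 ± 0.07 SE, edgeR adjusted p = 0.706). LATS2, the kinase that phosphorylates YAP1 and whose gene is a YAP1 target, stood at 42.7, 35.8 and 32.9 CPM in ZIC2 knockdown and at 26.5, 33.9 and 30.3 CPM in NT ectoderm (log2 0.29 ± 0.12 SE, edgeR adjusted p = 0.0867). The groups overlapped in both genes.

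Markers of cell state moved beside these genes. The list of neural ectoderm markers summed to 650.5 to 716 CPM in ZIC2 knockdown and 877 to 1004 CPM in NT ectoderm libraries, and the list of core pluripotency genes to 4267 to 4555 CPM and 5355 to 5803 CPM in the same order. Of the 6 neural ectoderm markers 2 were called lower and 0 higher. Of the 5 core pluripotency genes 2 were called lower and 1 higher. Amnion markers summed to 4.55 to 5.32 CPM in ZIC2 knockdown and 0.144 to 1.41 CPM in NT ectoderm. Of these 4 markers only 1 was tested, and it was called higher. TFAP2B stood at 0 in both groups and ISL1 at 0 in NT ectoderm. Fibroblast markers summed to 217 to 244 CPM in ZIC2 knockdown and 124 to 139.9 CPM in NT ectoderm, with COL3A1, DCN, LUM and POSTN at 0 in both groups. The part of these markers in the result was not tested.

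In primed cells the CARHSP1 knockdown moved CCN2 most. CARHSP1 is a cold-shock-domain protein that binds RNA. Of the 9 members, 3 rose and 1 fell, while 20.2% of 15642 genes tested were called, 10.3% as higher and 9.87% as lower. The members' median log2 difference was 0.07, and that of all genes was -0.00. CCN2 stood at 105, 111 and 101 CPM in CARHSP1 knockdown libraries, against 47.1, 50.7 and 48.0 CPM in NT primed libraries. It rose 2.18-fold, with no overlap between the groups (log2 1.13 ± 0.07 SE, edgeR adjusted p = 5.48e-16).

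CCN1 and TEAD1 also rose in CARHSP1 knockdown, by less. CCN1 stood at 121, 118 and 113 CPM in CARHSP1 knockdown, against 93.2, 103 and 96.4 CPM in NT primed cells (1.21-fold, log2 0.27 ± 0.06 SE, edgeR adjusted p = 0.00103). TEAD1 stood at 119, 132 and 129 CPM in CARHSP1 knockdown, against 111, 103 and 109 CPM in NT primed cells (1.17-fold, log2 0.23 ± 0.06 SE, edgeR adjusted p = 0.00433). AMOTL2, which rose in ZIC2 knockdown ectoderm, fell here, at 58.9, 56.1 and 59.2 CPM in CARHSP1 knockdown against 66.6, 68.7 and 64.4 CPM in NT primed cells (log2 -0.19 ± 0.07 SE, edgeR adjusted p = 0.0499). That call was lost in 11 of 13 alternatives, leaving out any 1 of the 6 libraries included (adjusted p of 0.053 to 0.163), and removing GC and length trends brought it to -0.07 with an adjusted p of 0.521.

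The other members did not pass in CARHSP1 knockdown. YAP1 averaged 209.7 ± 7.48 CPM in CARHSP1 knockdown and 199 ± 4.87 CPM in NT primed cells (log2 0.07 ± 0.05 SE, edgeR adjusted p = 0.318). TEAD2 averaged 189 CPM in both groups (adjusted p = 0.981). TEAD4 differed by -0.08 ± 0.07 (adjusted p = 0.521), LATS2 by -0.11 ± 0.10 (0.511) and AJUBA by 0.12 ± 0.09 (0.375) on the log2 scale. Like CCN2, YAP1 and AJUBA had no overlap between the groups, although neither was called. Mesendoderm markers summed to 130 to 147 CPM in CARHSP1 knockdown and 296 to 305 CPM in NT primed cells. Of these 7 markers 2 were tested and 1 was called lower, with GATA6 and SOX17 at 0 in both groups. Fibroblast markers summed to 229 to 260 CPM in CARHSP1 knockdown and 266 to 287 CPM in NT primed cells. The part of both marker lists in the result was not tested.

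In naive cells the ZNF8 knockdown raised TEAD1, CCN1 and AMOTL2. ZNF8 is a zinc-finger protein. Of the 9 members 3 rose and none fell by edgeR or DESeq2, nor at an unadjusted p under 0.05, while 24.2% of 15323 genes tested were called, 11.9% as higher and 12.3% as lower. The share of members called is thus near that of all genes. Their median log2 difference was 0.15, against -0.01 over all genes. TEAD1 stood at 133, 125 and 123 CPM in ZNF8 knockdown libraries, against 93.7, 89.4 and 85.9 CPM in NT naive libraries, and rose 1.41-fold (log2 0.49 ± 0.06 SE, edgeR adjusted p = 9.16e-08). CCN1 stood at 37.4, 38.2 and 34.5 CPM in ZNF8 knockdown, against 22.3, 29.1 and 26.1 CPM in NT naive cells, and rose 1.41-fold (log2 0.50 ± 0.10 SE, edgeR adjusted p = 0.000283). AMOTL2 stood at 77.7, 86.6 and 73.7 CPM in ZNF8 knockdown, against 67.0, 61.8 and 66.5 CPM in NT naive cells, and rose 1.21-fold (log2 0.27 ± 0.07 SE, edgeR adjusted p = 0.00499). None of these 3 pairs of groups overlapped, nor did those of CCN2, which was not called. How many of all genes had no overlap was not counted.

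CCN2, which rose in the other two knockdowns, did not pass here. It stood at 72.5, 71.1 and 67.5 CPM in ZNF8 knockdown and at 64.6, 61.2 and 62.9 CPM in NT naive cells (log2 0.15 ± 0.07 SE, edgeR adjusted p = 0.122). With GC and length trends removed its log2 difference was 0.21 with an adjusted p of 0.0119. AJUBA stood at 27.1, 20.1 and 18.1 CPM in ZNF8 knockdown and at 16.2, 16.7 and 21.6 CPM in NT naive cells (log2 0.27 ± 0.14 SE, edgeR adjusted p = 0.147). It passed without ZNF8 knockdown replicate 3 (0.39, adjusted p = 0.035) and without NT naive replicate 3 (0.41, adjusted p = 0.0396). YAP1 differed by 0.02 ± 0.05 (adjusted p = 0.865), TEAD2 by 0.02 ± 0.05 (0.822), TEAD4 by -0.13 ± 0.09 (0.335) and LATS2 by -0.15 ± 0.10 (0.292) on the log2 scale. Naive markers summed to 697 to 707 CPM in ZNF8 knockdown and 981 to 1019 CPM in NT naive cells. Trophoblast markers summed to 20.1 to 26.6 CPM and 69.9 to 76.4 CPM in the same order, and fibroblast markers to 394 to 427 CPM and 305 to 315 CPM, with COL3A1, DCN and LUM at 0 in the knockdown. Their part in the result was not tested.

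**Figure D3:**
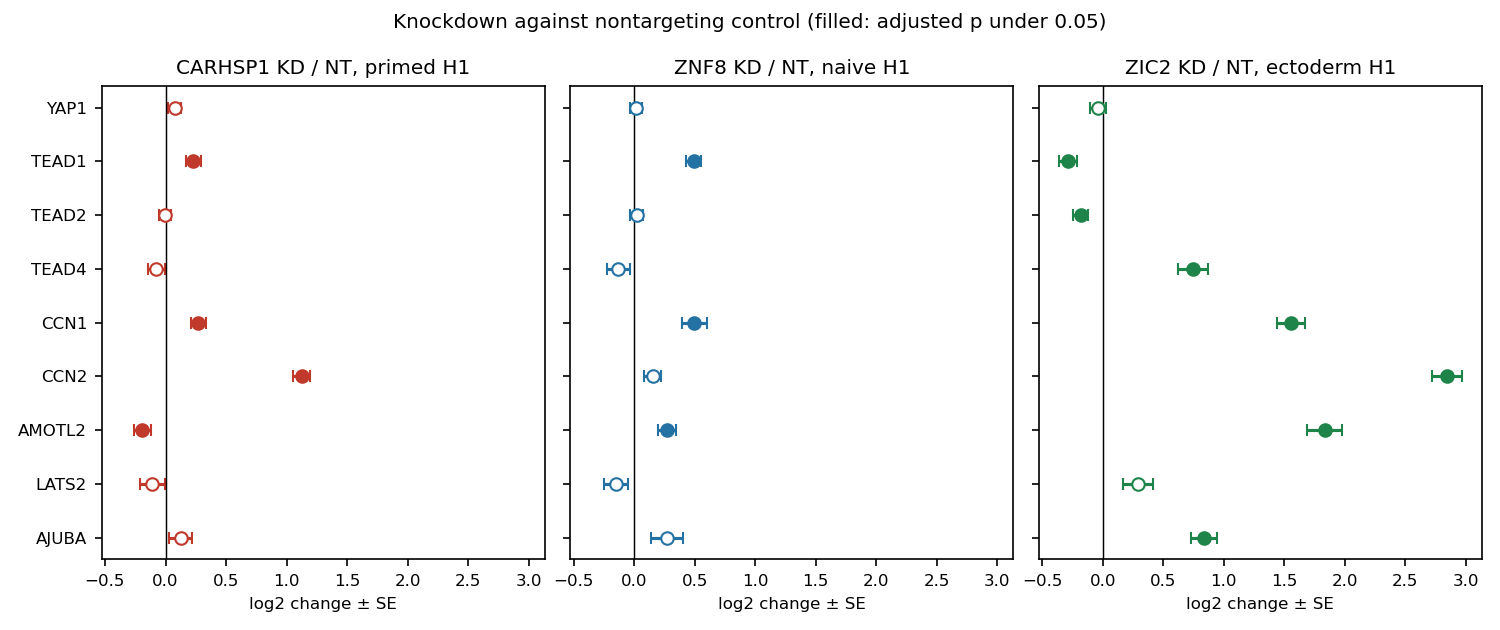
Log2 difference of the 9 members other than ANKRD1, knockdown against its NT control, with SE bars (x axis, log2 scale), for the 3 knockdowns in H1. Filled points passed an edgeR adjusted p of 0.05. CCN2 lies at 2.84 in ZIC2 knockdown, 1.13 in CARHSP1 knockdown and 0.15 in ZNF8 knockdown, and YAP1 lies within 0.07 of 0 in all 3.

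The differences between the knockdowns were then tested directly, each over the 4 groups involved. Each knockdown was made in its own cell state, so knockdown and state cannot be told apart in these differences. The ZIC2 effect minus the CARHSP1 effect passed for 6 of 9 members, 5 upward and 1 downward, with 28.2% of all genes called, 15.5% upward and 12.6% downward. It was largest for AMOTL2 (log2 2.03 ± 0.15 SE, edgeR adjusted p = 6.09e-12), followed by CCN2 (1.72 ± 0.13, adjusted p = 3.26e-11) and CCN1 (1.28 ± 0.12, adjusted p = 9.66e-10). TEAD4 (0.82 ± 0.13, adjusted p = 2.67e-05), AJUBA (0.71 ± 0.14, adjusted p = 0.000263) and TEAD1 (-0.52 ± 0.10, adjusted p = 0.000174) also differed.

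The ZIC2 effect minus the ZNF8 effect passed for 6 of 9 members, 5 upward and 1 downward, with 16.7% of all genes called, 10.1% upward and 6.59% downward. CCN2 differed by 2.68 ± 0.14 SE on the log2 scale (edgeR adjusted p = 9.46e-16), AMOTL2 by 1.56 ± 0.15 (adjusted p = 3.37e-09) and CCN1 by 1.05 ± 0.16 (adjusted p = 1.1e-05). TEAD4 differed by 0.87 ± 0.15 (adjusted p = 9.52e-05) and TEAD1 by -0.78 ± 0.10 (adjusted p = 4.23e-07). AJUBA differed by 0.56 ± 0.19 (adjusted p = 0.0408), a call that was lost in 7 of 12 fits leaving out 1 library. Those libraries were ZNF8 knockdown replicates 2 and 3, NT naive replicate 3, ZIC2 knockdown replicates 1 and 3 and NT ectoderm replicates 2 and 3, and the adjusted p without them ran from 0.0506 to 0.168. LATS2 did not pass in either ZIC2 difference, but did in both without ZIC2 knockdown replicate 3 or NT ectoderm replicate 2, at adjusted p of 0.0351 to 0.0486.

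The CARHSP1 effect minus the ZNF8 effect passed for 3 of 9 members, 1 upward and 2 downward, with 21.1% of all genes called, 9.77% upward and 11.4% downward. CCN2 was higher by 0.96 ± 0.10 SE (edgeR adjusted p = 2.82e-10), AMOTL2 lower by a log2 difference of -0.48 ± 0.10 (adjusted p = 0.000421) and TEAD1 lower by one of -0.28 ± 0.09 (adjusted p = 0.0173). The TEAD1 call was lost without CARHSP1 knockdown replicate 1, NT primed replicate 1, ZNF8 knockdown replicate 1 or NT naive replicate 3, with adjusted p of 0.062 to 0.081. For CCN1 the difference was -0.24 (adjusted p = 0.118), and -0.34 without NT naive replicate 2 (adjusted p = 0.0347).

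Around these members, the rest of the pathway was read from lists of known genes. Over all genes tested, 28.1% were called in ZIC2, 20.2% in CARHSP1 and 24.2% in ZNF8 knockdown. The kinase core (STK3, STK4, SAV1, LATS1, MOB1A and MOB1B), which passes the signal to YAP1, had 6 tested genes and none called by edgeR or DESeq2 in any of the 3 knockdowns. At an unadjusted edgeR p under 0.05 there was 1 in CARHSP1, 1 in ZNF8 and 0 in ZIC2 knockdown, and 1 was called without CARHSP1 knockdown replicate 1 and 1 without NT naive replicate 3. Its median log2 differences were 0.01 in ZIC2, 0.08 in CARHSP1 and -0.00 in ZNF8 knockdown. Of the cofactors of the complex (WWTR1, TEAD3 and VGLL1 to VGLL4), 4 were tested in each knockdown. In ZIC2 knockdown 3 of them rose, with a list median of 0.50. TEAD3 rose by 0.93 ± 0.11 (edgeR adjusted p = 1.02e-06), VGLL4, which competes with YAP1 for TEAD proteins, by 0.58 ± 0.13 (adjusted p = 0.00198), and WWTR1 by 0.42 ± 0.15 (adjusted p = 0.0353), a call lost without replicate 2 or 3 of either group (adjusted p of 0.0716 to 0.184). In ZNF8 knockdown TEAD3 fell by 0.96 on the log2 scale (edgeR adjusted p = 2.68e-06) and VGLL3 rose by 0.77 ± 0.10 (adjusted p = 2.02e-07), and in CARHSP1 knockdown none of the 4 passed by edgeR or DESeq2, and 1 was at an unadjusted p under 0.05.

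Upstream regulators moved unevenly. AMOT, the angiomotin that binds YAP1, stood at 58.5, 59.8 and 58.4 CPM in ZIC2 knockdown libraries, against 15.2, 12.5 and 14.9 CPM in NT ectoderm, and rose by 2.06 ± 0.11 on the log2 scale (edgeR adjusted p = 7.87e-12). AMOT thus rose together with its relative AMOTL2. In all, 4 of the 14 upstream genes rose and 1 fell in ZIC2 knockdown (median 0.03), beside 28.1% of all genes called either way. Without ZIC2 knockdown replicate 1, 2 of the 14 were called. Calls over all genes fell there too, from 4217 of 15013 to 3296 of 15369. In CARHSP1 knockdown 2 rose and 4 fell, with a median of -0.06, beside 20.2% of all genes. The atypical cadherin FAT4 averaged 15.1 CPM in CARHSP1 knockdown and 32.9 CPM in NT primed cells (log2 -1.10 ± 0.12 SE, edgeR adjusted p = 2.25e-09), and LIMD1, a relative of AJUBA, fell by 0.48 (adjusted p = 0.00152). Only 3 of the 14 were called without CARHSP1 knockdown replicate 2 or NT primed replicate 3. Calls over all genes fell too, from 3152 of 15642 to 2096 of 16220 and 2201 of 16163 in the same order. In ZNF8 knockdown the kinase gene MAP4K4 rose by 0.16 ± 0.05 (edgeR adjusted p = 0.00784, but 0.0774 without NT naive replicate 2) and DCHS1, the ligand of FAT4, fell by 0.50 (adjusted p = 0.00039). No other of the 14 passed there, beside 24.2% of all genes. Without NT naive replicate 1, 4 were called, beside 3077 of 15702 over all genes.

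A list of 17 other known YAP1 and TEAD targets did not move as 1 block. In ZIC2 knockdown 8 of 15 tested genes rose and 2 fell, with a median of 0.41, beside 15.3% of all genes higher and 12.8% lower. Among them GADD45A rose by 1.31 ± 0.16 (edgeR adjusted p = 1.85e-06) and the phosphatase gene PTPN14 by 0.66 ± 0.06 (adjusted p = 7.35e-08). Those that fell were the growth factor gene TGFB2, at a mean of 16.6 CPM in ZIC2 knockdown and 60.8 CPM in NT ectoderm (log2 -1.86 ± 0.12 SE, edgeR adjusted p = 5.77e-11), and IGFBP3, at 26.8 and 60.1 CPM in the same order (log2 -1.16 ± 0.11 SE, adjusted p = 2.53e-08). In ZNF8 knockdown 8 of 14 rose and 1 fell, with a median of 0.21, beside 11.9% of all genes higher and 12.3% lower. Here TGFB2 averaged 20.4 CPM against 10.3 CPM in NT naive cells (log2 0.99 ± 0.15 SE, edgeR adjusted p = 2e-06). IGFBP3 averaged 47.0 CPM in ZNF8 knockdown and 26.4 CPM in NT naive cells (log2 0.82 ± 0.09 SE, edgeR adjusted p = 4.51e-09). In CARHSP1 knockdown 2 of 15 rose and 1 fell, with a median of -0.06, a share close to the 20.2% of all genes called. PTPN14 had the smallest adjusted p there (log2 0.28 ± 0.05 SE, edgeR adjusted p = 0.000236).

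A further pair of lists holds genes that share promoters or signals with YAP1 and TEAD. SRF with its MRTF co-activators responds to actin, and AP-1 factors often bind beside TEAD proteins. The AP-1 list holds FOS and JUN family genes and also EGR1, which is not an AP-1 factor. Of 17 SRF genes and targets, 14 rose and none fell in ZIC2 knockdown (median 0.73), 8 rose and 1 fell in CARHSP1 knockdown (median 0.21) and 15 rose and none fell in ZNF8 knockdown (median 0.50). Of all genes tested, 15.3% were higher in ZIC2, 10.3% in CARHSP1 and 11.9% in ZNF8 knockdown. DESeq2 and an unadjusted edgeR p under 0.05 also gave 0 that fell in ZIC2 and in ZNF8 knockdown. In CARHSP1 knockdown 5 were called in all without NT primed replicate 3. Calls over all genes fell there too, from 3152 of 15642 to 2201 of 16163. TAGLN, a smooth-muscle actin-binding protein, rose by 3.22 ± 0.10 in ZIC2, 1.85 ± 0.07 in CARHSP1 and 2.26 ± 0.09 in ZNF8 knockdown on the log2 scale (edgeR adjusted p = 6.67e-16, 5.23e-22 and 6.98e-23). Of the AP-1 list, 5 of 8 tested genes, EGR1 among them, rose in ZIC2 knockdown, with a median of 0.94, beside the same 15.3% of all genes. FOSL1, a partner of JUN, stood at 24, 25 and 26.8 CPM in ZIC2 knockdown libraries, against 2.88, 1.66 and 2.98 CPM in NT ectoderm (log2 3.33 ± 0.21 SE, edgeR adjusted p = 4.52e-11). In CARHSP1 knockdown FOSL1 rose by 1.09 ± 0.20 (edgeR adjusted p = 0.000133) while JUN fell by 0.72 (adjusted p = 3.1e-05) and JUNB fell by 1.08 (adjusted p = 0.0115). The JUNB call was lost without CARHSP1 knockdown replicate 3 (adjusted p = 0.0582) or NT primed replicate 1 (0.0682). In ZNF8 knockdown JUN rose by 0.53 ± 0.11 (edgeR adjusted p = 0.00035) and FOS fell by 1.65 (adjusted p = 0.00206).

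**Figure D4:**
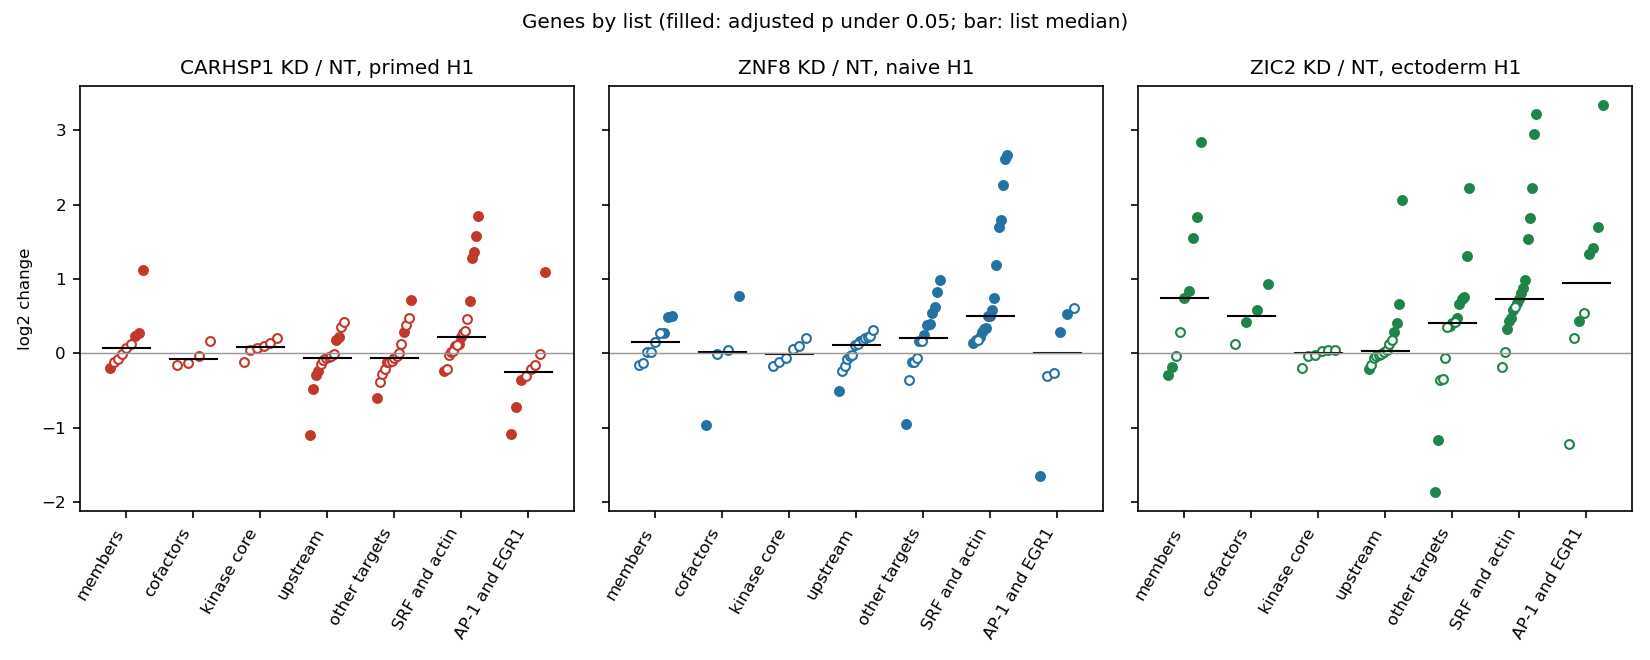
Log2 difference of each tested gene of the members other than ANKRD1 and of the pathway lists, knockdown against NT control (log2 axis), 1 panel per knockdown. Filled points passed an edgeR adjusted p of 0.05 and bars mark each list's median. The kinase core has no filled point in any panel.

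Between cell states the members differed in other ways in the H1 and H9 lines. In H9, 6 of the 9 members were lower in naive than in primed cells and none was higher by edgeR or DESeq2, nor at an unadjusted p under 0.05, while 51.5% of 15761 genes tested were called, 25.4% as higher and 26.1% as lower. The median over the members was -1.20. AJUBA stood at 6.68, 8.16 and 6.41 CPM in naive H9 libraries, against 86.9, 97.7 and 92.2 CPM in primed H9 libraries, and was 13.1-fold lower (log2 -3.71 ± 0.13 SE, edgeR adjusted p = 2.14e-14). AMOTL2 stood at 7.86, 8.05 and 7.37 CPM in naive H9, against 71.1, 61.5 and 80.1 CPM in primed H9, and was 9.15-fold lower (log2 -3.19 ± 0.13 SE, edgeR adjusted p = 4.48e-13). Both genes encode adaptors that act on LATS kinases or YAP1 itself.

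The matricellular targets were also lower in naive H9 cells. CCN1 stood at 23.8, 22.0 and 16.3 CPM in naive H9, against 141, 128 and 127 CPM in primed H9 (6.36-fold lower, log2 -2.67 ± 0.12 SE, edgeR adjusted p = 1.48e-12). CCN2 stood at 33.9, 30.7 and 30.5 CPM in naive H9, against 126, 131 and 125 CPM in primed H9 (4.02-fold lower, log2 -2.01 ± 0.10 SE, edgeR adjusted p = 2.48e-12). TEAD1 was 2.31-fold lower (log2 -1.20 ± 0.12 SE, edgeR adjusted p = 6.2e-08) and LATS2 2.15-fold lower (log2 -1.11 ± 0.12 SE, edgeR adjusted p = 2.58e-07). YAP1 averaged 132 ± 10.1 CPM in naive and 131 ± 15.3 CPM in primed H9 (log2 0.01 ± 0.10 SE, edgeR adjusted p = 0.961), and TEAD4 34.7 ± 2.43 and 34.9 ± 2.54 CPM in the same order (log2 -0.01 ± 0.11 SE, adjusted p = 0.938). TEAD2 differed by -0.18 ± 0.08 (adjusted p = 0.0816), and by -0.27 with an adjusted p of 0.00141 once GC and length trends were removed.

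In NT H1 cells 4 of the 9 members were higher and 4 lower in naive than in primed cells, while 71.1% of 15874 genes tested were called, 35% as higher and 36.1% as lower. CCN1 stood at 22.3, 29.1 and 26.1 CPM in NT naive libraries, against 93.2, 103 and 96.4 CPM in NT primed libraries, and was 3.77-fold lower (log2 -1.91 ± 0.08 SE, edgeR adjusted p = 2e-30). TEAD4 was 1.85-fold lower, at 35.5, 43.3 and 41.8 CPM in NT naive against 79.9, 69.2 and 72.4 CPM in NT primed cells (log2 -0.89 ± 0.08 SE, edgeR adjusted p = 4.24e-15). AJUBA was 1.76-fold lower (log2 -0.82 ± 0.12 SE, edgeR adjusted p = 1.41e-08), and TEAD1 was lower by a log2 difference of -0.27 ± 0.06 (adjusted p = 0.000149). CCN2 went the other way from CCN1, at 64.6, 61.2 and 62.9 CPM in NT naive against 47.1, 50.7 and 48.0 CPM in NT primed cells (1.29-fold higher, log2 0.37 ± 0.08 SE, edgeR adjusted p = 2.61e-05). YAP1 was 1.25-fold higher (log2 0.32 ± 0.05 SE, edgeR adjusted p = 1.95e-08), LATS2 1.24-fold higher (0.31 ± 0.10, adjusted p = 0.00575) and TEAD2 1.18-fold higher (0.24 ± 0.05, adjusted p = 1.79e-05). Removing GC and length trends moved TEAD2 to 0.41. AMOTL2 differed by -0.03 ± 0.07 (adjusted p = 0.698), and by 0.19 with GC and length trends removed.

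The naive-minus-primed difference in NT H1 minus that in H9 passed for all 9 members, 8 upward and TEAD4 downward, with 49.9% of 17140 genes called, 23.6% upward and 26.2% downward. AMOTL2 (log2 3.17 ± 0.15 SE, edgeR adjusted p = 3.31e-17), AJUBA (2.90 ± 0.17, adjusted p = 8.86e-15) and CCN2 (2.39 ± 0.12, adjusted p = 6.59e-17) differed most. The H1 libraries carry the doxycycline label and the H9 libraries do not, and the 2 lines were counted in separate tables, so line, treatment and table cannot be told apart. Markers also differed by line. Trophoblast markers summed to 69.9 to 76.4 CPM in NT naive and 6.89 to 11.8 CPM in NT primed H1 libraries, and to 8.04 to 13.1 CPM in naive and 10.3 to 16 CPM in primed H9 libraries, with CGA at 0 in both H9 groups. Of 5 trophoblast markers tested in NT H1, 4 were called higher in naive cells and 0 lower. Of 3 tested in H9, 2 were called higher in naive cells and 1 lower. Amnion markers summed to 35.5 to 40.4 CPM in NT naive and 11.7 to 13.0 CPM in NT primed H1 libraries. In H9 they summed to 2.12 to 2.30 CPM in naive and 43.6 to 47.3 CPM in primed libraries. Of these 4 markers 3 were tested in NT H1, with 2 called higher in naive cells and 1 lower. Only 1 was tested in H9, and it was called lower. VTCN1 stood at 0 in naive H9 and TFAP2B at 0 in primed H9. Primed markers summed to 196 to 210.4 CPM in NT naive and 1651 to 1701 CPM in NT primed H1 libraries, and to 457 to 481 CPM in naive and 1446 to 1528 CPM in primed H9 libraries. Of the 7 primed markers, 6 were called lower and 1 higher in NT naive H1, and 7 lower in naive H9. The part of these marker lists in these results was not tested.

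In NT ectoderm at day 2, 2 of the 9 members were higher and 5 lower than in NT primed cells, while 62.8% of 15409 genes tested were called, 30.7% as higher and 32.1% as lower. The median over the members was -0.82. AMOTL2 was 6.48-fold lower, at 10.1, 11 and 9.86 CPM in NT ectoderm against 66.6, 68.7 and 64.4 CPM in NT primed cells (log2 -2.70 ± 0.11 SE, edgeR adjusted p = 9.43e-19). CCN1 was 5.22-fold lower (log2 -2.38 ± 0.10 SE, edgeR adjusted p = 6.26e-19) and CCN2 4.63-fold lower (log2 -2.21 ± 0.13 SE, adjusted p = 3.94e-15). This comparison shares the NT ectoderm libraries with that of the ZIC2 knockdown, and the NT primed libraries with that of the CARHSP1 knockdown. TEAD4 was 3.93-fold lower (log2 -1.97 ± 0.10 SE, edgeR adjusted p = 2.25e-16) and YAP1 1.76-fold lower, at 113, 116 and 112 CPM in NT ectoderm against 204, 199.5 and 194 CPM in NT primed cells (log2 -0.82 ± 0.06 SE, edgeR adjusted p = 9.37e-13). TEAD2 was 1.55-fold higher (log2 0.63 ± 0.06 SE, edgeR adjusted p = 9.53e-11; 1.00 with GC and length trends removed) and TEAD1 1.40-fold higher (0.48 ± 0.07, adjusted p = 9.94e-07). LATS2 (log2 0.07, adjusted p = 0.649) and AJUBA (-0.06, adjusted p = 0.64) did not pass. All 6 neural ectoderm markers listed were higher in NT ectoderm. Fibroblast markers summed to 124 to 139.9 CPM in NT ectoderm and 266 to 287 CPM in NT primed libraries, with 4 of 4 tested called lower and COL3A1 and LUM at 0 in both groups. Mesendoderm markers summed to 58.9 to 71.5 CPM in NT ectoderm and 296 to 305 CPM in NT primed libraries. Amnion markers summed to 0.144 to 1.41 CPM and 11.7 to 13.0 CPM in the same order. Only 2 of the 7 mesendoderm and 1 of the 4 amnion markers were tested, each called lower. Their part in the result was not tested.

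**Figure D5:**
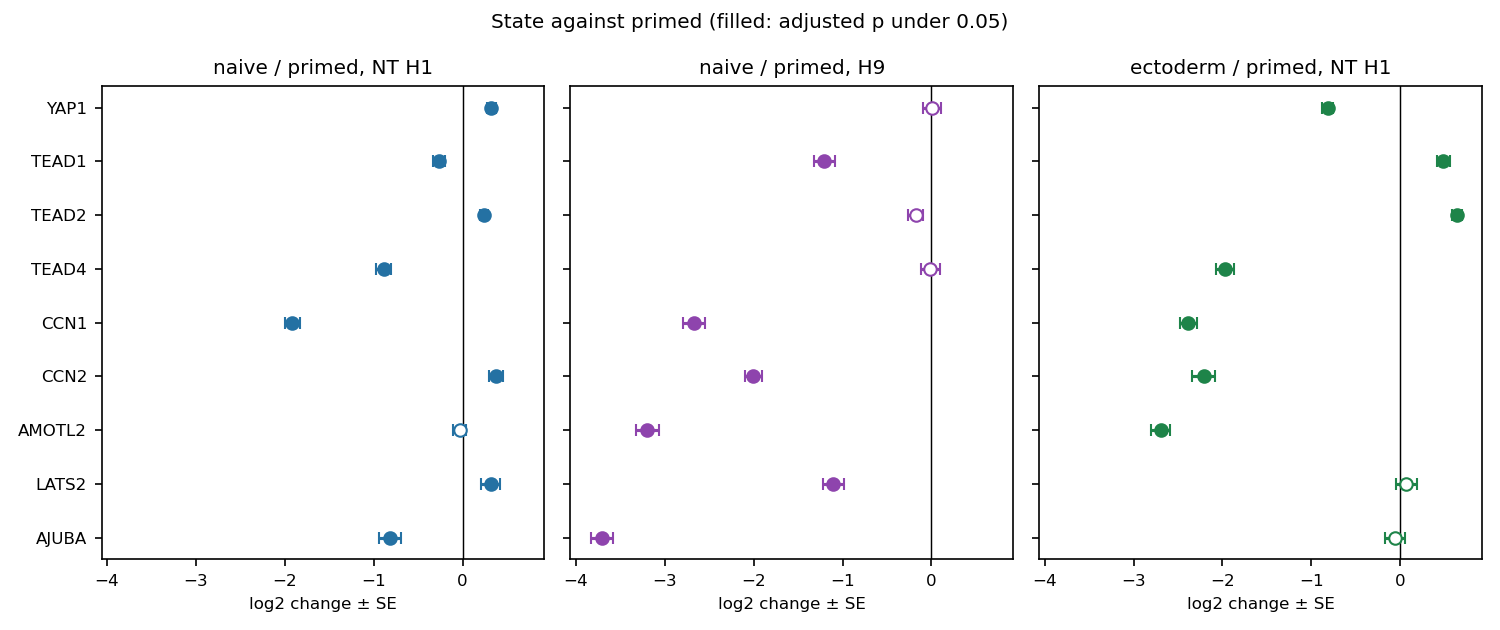
Log2 difference of the 9 members other than ANKRD1 with SE bars (log2 axis), naive against primed in H9, naive against primed in NT H1 and day 2 ectoderm against primed in NT H1. CCN2 lies at -2.01 in H9 and at 0.37 in NT H1, and AMOTL2 at -3.19 and -0.03.

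Of the cofactors, VGLL3 had the largest difference in H9, at a log2 of -3.59 ± 0.19 in naive against primed cells (edgeR adjusted p = 9.58e-12), and did not pass in NT H1 (-0.19 ± 0.12, adjusted p = 0.141). WWTR1 was higher in naive than in primed cells by 1.32 ± 0.11 in H9 and 1.30 ± 0.08 in NT H1 (edgeR adjusted p = 7.31e-09 and 8.58e-24), and TEAD3 lower by log2 differences of -1.09 ± 0.11 and -1.79 ± 0.09 (adjusted p = 1.45e-07 and 3.08e-26). In ectoderm against primed cells WWTR1 differed by -1.24 ± 0.12 (edgeR adjusted p = 7.52e-10) and TEAD3 by -0.83 ± 0.09 (adjusted p = 1.07e-08; -0.38 with GC and length trends removed). Of the 14 upstream genes, 2 were higher and 6 lower in naive H9, where 51.5% of all genes were called, and 8 higher and 2 lower in NT naive H1, where 71.1% were. Both directions together, these counts are close to the shares of all genes. By direction the list leaned lower in naive H9 and higher in NT naive H1. Of all genes, 25.4% were higher and 26.1% lower in naive H9, and 35% and 36.1% in NT naive H1. AMOTL1, the third angiomotin, differed by -3.95 ± 0.10 in H1 (edgeR adjusted p = 1.55e-44) and -0.63 ± 0.15 in H9 (adjusted p = 0.00134; -0.40 with GC and length trends removed). FAT4 was lower in NT ectoderm than in NT primed cells by a log2 difference of -2.81 ± 0.16 (edgeR adjusted p = 5.91e-15). Among the other targets, TGFB2 and IGFBP3 were higher in NT ectoderm than in NT primed cells by 4.22 ± 0.16 and 3.10 ± 0.12 (edgeR adjusted p = 1.11e-19 and 2.91e-19), in contrast to CCN1, CCN2 and AMOTL2. Of the AP-1 list 7 of 8 tested genes were lower in NT ectoderm, beside 32.1% of all genes, although JUND, at -0.84, stood at 0.47 with GC and length trends removed. The list was led by EGR1, which is not itself an AP-1 factor (-3.05 ± 0.13, edgeR adjusted p = 1.58e-18), and FOS (-4.31 ± 0.18, adjusted p = 2.13e-18).

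ANKRD1, a cardiac and muscle ankyrin-repeat protein and a classical YAP1 target, stood near the detection limit in every group. Its counts were 9, 9 and 10 in CARHSP1 knockdown libraries and 0 in each NT primed library. Its pooled rate in the knockdown was 6.84-fold that of a floor of 3 counts over the control group. In ZIC2 knockdown 2 libraries held 8 counts each and 1 held 0, against 0 in each NT ectoderm library. The pooled rate was 4.76-fold that of the same floor. In naive cells ANKRD1 held 71 counts over the 3 ZNF8 knockdown libraries, at 1.92, 1.23 and 1.46 CPM, and 57 counts over the NT naive libraries, at 2.37, 1.21 and 1.59 CPM (log2 -0.16, edgeR adjusted p = 0.816). The NT naive rate was 17.6-fold that of the floor of NT primed H1. ANKRD1 passed as higher in NT naive than in NT primed cells (edgeR adjusted p = 2.52e-08). With NT primed at 0, that log2 value is not a measured fold. In H9 ANKRD1 held 1 count over the naive and 3 over the primed libraries, which allows no fold. Its differences of effects passed by edgeR for CARHSP1 minus ZNF8 (adjusted p = 0.000946), ZIC2 minus ZNF8 (0.0198) and H1 minus H9 (0.00274). Each of these involves a group at 0, so their log2 values are not measured folds. The ratios to the floor allow for counting error in the group at 0 only. They do not allow for that of the higher group or for the spread between libraries.

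Ordered by mean level over the 6 H1 groups, the members fell into different patterns. CCN2 spanned 10.2-fold, AMOTL2 7.68-fold and CCN1 6.34-fold between the highest and the lowest group, TEAD4 3.91-fold, AJUBA 3.0-fold and YAP1 2.30-fold, and TEAD1 (1.70), TEAD2 (1.56) and LATS2 (1.39) less. CCN2 was highest in CARHSP1 knockdown, then in ZIC2 knockdown and ZNF8 knockdown, whose libraries overlapped, and then in NT naive, NT primed and NT ectoderm cells. YAP1 was highest in the 2 naive groups, which overlapped, then in CARHSP1 knockdown and NT primed cells, and lowest in the 2 ectoderm groups, which overlapped. TEAD4 was highest in the 2 primed groups, which overlapped, and lowest in NT ectoderm. AMOTL2 ran from ZNF8 knockdown through NT primed and NT naive cells, which overlapped, and CARHSP1 knockdown to ZIC2 knockdown and NT ectoderm. For LATS2 every neighbour in the order overlapped.

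Over the 18 H1 libraries, the genes whose log2(CPM + 1) followed YAP1 most closely, among 12947 genes at 5 CPM or more in some group, were ETS1 (Pearson r = 0.992), SMAD7 (0.990) and PRKCQ-AS1 (0.989). For TEAD4 they were LIMD2 (0.981), RMND5B (0.976) and ADAMTS1 (0.976), for CCN2 ST14 (0.920), ANO6 (0.909) and MYH9 (0.904), and for ANKRD1 F11R (0.938), PRMT9 (0.929) and MYL12A (0.925). The 18 points share 6 groups, so these values describe patterns over groups.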

How the data were processed

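The labels name the RNeasy kit for RNA and the TruSeq Stranded mRNA kit for libraries. HISAT2 and GRCh38 are named in the submitters' processing notes. Which HISAT2 version, counter, gene annotation and strand option were used is not given in the sources. The authors deposited whole-number read counts per gene, not normalized, in 1 table for the 18 H1 and 1 for the 6 H9 libraries, each of 60671 genes. A gene length, deposited by the authors with the H1 counts, served both lines. Another 27 columns of that table match no sample described here and were left out. Symbols were found for 60401 genes and GENCODE 29 positions for 58453.

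Genes passing filterByExpr were tested with edgeR 4.0.16 in R 4.3.3, by its quasi-likelihood F test with TMM factors, 2-sided, with Benjamini-Hochberg adjustment over all genes tested and a threshold of 0.05. Each comparison was fitted on its 2 groups alone, and each difference of effects on its 4 groups. Printed CPM levels were scaled over a whole table, and fold changes come from the fits. SEs were derived from the F statistic. Library totals ranged from 6756704 to 20773963 counts, so a gene at 0 in 3 libraries is bounded by 3 counts over the group. Counting bounds cover counting error of the group at 0 only.

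Replicates within groups differed by more than sampling noise (chi-square per degree of freedom 2.44 to 9.16), so no library looked deposited more than once. On simulated counts 193 to 197 of 200 genes changed by a log2 of 1 were recovered in each of the 6 comparisons, with 3 to 12 false calls. The changed genes were drawn from those at 5 CPM or more. Recovery of smaller changes, such as many of those reported here, was not tested. Alternatives were DESeq2 1.42.0 and its size factors, no filter on low counts, all groups of the table in one fit, removal of GC and length trends, a replicate block and leaving out each library. The members and lists were chosen with earlier results of these data known. From each pathway list the text names up to 4 genes per comparison with the smallest adjusted p among those that passed. Motifs were searched on both strands in the 250 bases before each start of the RefSeq promoter windows of GRCh38.p14, as GGAATG. The AP-1 motif TGANTCA was found in 6.57% of the 35116 windows and, among members, 1 time in that of ANKRD1, and the CArG box of SRF in 1.16%.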

Additional observations from a re-analysis of the deposited data

Results flagged for a closer look

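The naive-minus-primed difference in NT H1 cells minus that in H9 cells was itself tested over the 4 groups with edgeR. It passed for all 9 members other than ANKRD1, so each is listed for a closer look. On the log2 scale it was 3.17 for AMOTL2 (adjusted p = 3.31e-17), 2.90 for AJUBA (8.86e-15), 2.39 for CCN2 (6.59e-17), 1.43 for LATS2 (7.46e-09), 0.95 for TEAD1 (5.62e-07) and 0.76 for CCN1 (0.00012). It was 0.43 for TEAD2 (0.000325), 0.32 for YAP1 (0.0124) and -0.86 for TEAD4 (7.6e-06). ANKRD1 also passed (8.31, edgeR adjusted p = 0.00274), but it stood at 0 in NT primed H1 cells, so that value is not a measured fold. The YAP1 value was 0.24 with an edgeR adjusted p of 0.0516 without primed H9 replicate 2. CCN2 and LATS2 had a called change in each line and opposite directions. CCN2 differed by 0.37 in NT H1 and -2.01 in H9, and LATS2 by 0.31 in NT H1 and -1.11 in H9 (naive minus primed, log2). Of all genes, 49.9% were called in the same test. Line, the doxycycline label and the table of origin cannot be told apart in it.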

How the results depend on the processing

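Of 1246 member values recomputed under alternatives, 1203 kept their side of the threshold, 28 lost a call and 13 gained one. Another 2 reversed, passing with the opposite sign. Values that never passed could change sign and still count as kept. TEAD4 in CARHSP1 knockdown, at a log2 of -0.08, ran from -0.14 to 0.08. The reversed values were AMOTL2 in naive against primed NT H1 cells, at 0.19 both with GC and length trends removed and with the replicate block added to that removal. JUND of the AP-1 list reversed to 0.47 under the same 2 settings in ectoderm against primed cells. The cause was not tested. Out of 9 members, the number called under all alternatives ran from 3 to 4 in CARHSP1 knockdown, 3 to 4 in ZNF8 knockdown, 6 to 7 in ZIC2 knockdown, 6 to 7 in H9, and 8 to 9 between the NT H1 states, and was 7 in ectoderm against primed cells. For the differences it ran from 2 to 4 (CARHSP1 minus ZNF8), 6 to 7 (ZIC2 minus CARHSP1), 5 to 7 (ZIC2 minus ZNF8) and 8 to 9 (H1 minus H9). Over all genes, the CARHSP1 comparison called 3152 genes, but 2096 without CARHSP1 knockdown replicate 2 and 2045 without NT primed replicate 1. Dropping the filter moved the median of all genes in ectoderm against primed cells to -0.11. In H9 the replicate numbers showed no steady pairing: correlations of deviations between same-numbered libraries were 0.235, -0.194 and -0.154. The replicate block left the members called at 4 in CARHSP1, 3 in ZNF8 and 7 in ZIC2 knockdown, 6 in H9, 8 between the NT H1 states and 7 in ectoderm. In the CARHSP1 pair 3 of 3 libraries correlated best with their own number, and in the ZIC2 pair 2 of 3. With the block, all genes called went from 3152 to 3404 in CARHSP1 and from 4217 to 4460 in ZIC2 knockdown. Whether those libraries were paired is not settled by these values. One fit over all groups was not possible for H9, whose table holds 2 groups. ANKRD1 stands at 0 to 38 counts per library, so depth limits its values.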
